A study of Mus musculus with 14 samples.

Results

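Dnmt1, Dnmt3a, Dnmt3b and Uhrf1 encode the mouse DNA methyltransferases and the adaptor that brings the maintenance enzyme to newly copied DNA. The array carries 11 probe sets that the platform annotation names for these 4 genes, out of 22626 probe sets tested and 12393 genes measured. Dnmt1 has 2 of them, Dnmt3a 5, Dnmt3b 2 and Uhrf1 2, and 0 are shared with another named gene. The 4 genes were chosen by family, with earlier results of the same arrays in view. They were selected on the measured Dnmt1 difference between Instigator and Matrigel arrays, so all their values in that comparison are given as a description, without a test. The other comparisons share arrays with that choice, so the Dnmt1 values there are not an independent test.

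The arrays measured RNA from mouse bone marrow cells sorted as Sca1+/cKit- by surface antigen. Sca1 is a surface protein of stem, progenitor and some lymphoid cells, and cKit is the stem cell factor receptor. The Instigator group (n = 5) came from mice carrying an instigating tumour of BPLER cells, a transformed line of human mammary epithelium. The Non-instigator group (n = 5) came from mice carrying a non-instigating tumour of PC3 cells, a human prostate carcinoma line, matched for tumour size. The Matrigel group (n = 4) came from mice given the Matrigel carrier gel without tumour cells. Both tumours are therefore human cells growing in mouse hosts, and each type is 1 cell line. The sources used here do not give the hosts' strain, age or genotype. No label says whether each array is a separate animal, so each p-value measures only how far these arrays spread, which may be technical. Values are log2 intensities, on which a difference of 1 is a doubling.

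Each array gave a median intensity between 119 and 145. Instigator 4 stood apart in its controls: the 5' signal minus the 3' signal was -3.41 on the log2 scale for beta-actin (-0.81 to -0.51 on the remaining 13 arrays) and -4.03 for Gapdh (-1.16 to -0.73). Matrigel 3 had a median log2 value of 7.18, against 6.90 to 7.01 elsewhere. Both arrays were kept, and results that rest on them are given with and without them. The exception is single genes named from the lists, whose means and differences are given over all arrays only. The free-text description of Instigator 5 names the PC3 tumour, while its title and source field place it among the Instigator arrays, where it was kept. Kit averaged 7.58 ± 0.22 in Instigator, 7.37 ± 0.45 in Non-instigator (SD, n = 5 each) and 7.52 ± 0.37 in Matrigel cells (SD, n = 4). These means lay above the median log2 value of every array, so the cKit side of the sort is not shown by these values. No probe set carries the symbol Ly6a, the gene for Sca1, so the Sca1 side was not checked.

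DNA methylation in mammals marks cytosines that precede a guanine. When DNA is copied the new strand lacks the mark. UHRF1 binds the hemimethylated site, ubiquitinates histone H3 and so recruits DNMT1, which restores the mark. DNMT3A and DNMT3B can methylate sites that carried no mark, and in blood stem cells Dnmt3a is known for its part in differentiation and as a gene often mutated in human leukaemia. Dnmt1 and Uhrf1 are highest in dividing cells and belong to the genes controlled by E2F factors, which switch on S phase.

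The promoter windows of these genes are shown because Dnmt1 and Uhrf1 share letters of the E2F type that Dnmt3a and Dnmt3b lack there. The windows run from 250 bases before to 50 after each RefSeq start (GRCm38.p6). The letters searched on both strands were TTTCGCGC, TTTGGCGC, TTTCCCGC and TTTGCCGC, of which no 2 overlapped in the windows shown. Of 32851 windows of the same length, 744 (2.26%) hold at least 1 of the 4 motifs. That share is not matched for CpG sites (a cytosine before a guanine), which each motif contains. The median window holds 7, and the motif windows of Dnmt1 and Uhrf1 hold 33 each. Those of Dnmt3a hold 46, 47 and 18 and that of Dnmt3b holds 30. Dnmt1 has 3 windows and Uhrf1 has 2, and in each gene 1 window holds a motif. The 3 windows of Dnmt3a and the 1 of Dnmt3b hold none of these letters. Each line below gives 30 bases, read 5′ to 3′ on the gene's strand, with the matched letters in capitals. The first Dnmt1 stretch reads the motif TTTCGCGC on the opposite strand, as GCGCGAAA, and lies at chr9:20952824-20952853 (minus strand). The second lies at chr9:20952574-20952603 (minus strand). The Uhrf1 stretch lies at chr17:56304117-56304146 (plus strand). Cdt1, at chr8:122568035-122568064 (plus strand), is added as the gene whose values followed Dnmt1 most closely over the 14 arrays. Windows were also matched for Nomo1 and Gars, a pair of other close genes of Dnmt1, and hold 0 of these motifs. The windows of Pole and Atad3a, also close to Dnmt1, are not given here. A match is a description of letters and not evidence of a bound site.
Dnmt1: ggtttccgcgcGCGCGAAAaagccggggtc
Dnmt1: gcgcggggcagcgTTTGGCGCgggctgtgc
Uhrf1: cccgagtcgggTTTCGCGCgcccaggcgtc
Cdt1: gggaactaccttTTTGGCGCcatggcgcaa

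Dnmt1, the maintenance methyltransferase, had its highest mean in Instigator cells on both probe sets, but neither difference from Non-instigator cells passed over all probe sets. On probe set 1435122_x_at it measured 11.93, 11.70, 12.04, 12.14 and 11.86 in the 5 Instigator arrays. The 5 Non-instigator arrays gave 11.68, 11.60, 11.47, 11.45 and 11.53, and the 4 Matrigel arrays gave 11.72, 11.33, 11.38 and 11.36. Every Instigator array lay above every Non-instigator array, as in 0.751% of all probe sets, and 4 of 5 lay above all Matrigel arrays, with Instigator 2 under Matrigel 1. Dnmt1 was chosen on these same Instigator arrays, so the share is a description and not a test. The separation holds without Instigator 5 (lowest Instigator value 11.70, highest Non-instigator value 11.68), but with Instigator 5 (11.86) counted as Non-instigator, as its description reads, the groups overlap and the difference is 0.35. The means were 11.93 ± 0.17 in Instigator and 11.55 ± 0.10 in Non-instigator cells (SD, n = 5 each), and 11.45 ± 0.18 in Matrigel cells (SD, n = 4). Instigator minus Non-instigator was 0.39 (SE 0.10, 95% interval 0.17 to 0.60), a 1.31-fold difference that limma did not call among the 22626 probe sets (adjusted p = 0.813). The difference between Instigator and Matrigel was 0.49 (SE 0.11), or 1.4-fold, and is described only. Non-instigator minus Matrigel was 0.10 (95% interval -0.12 to 0.32, limma adjusted p = 0.986). The order of the group means was therefore Instigator, Non-instigator, Matrigel, with the lower pair within the spread of their arrays.

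The other Dnmt1 probe set, 1422946_a_at, gave the groups in the same order with wider spread. It measured 9.67, 9.52, 9.90, 10.01 and 9.73 in Instigator cells, 9.91, 9.48, 9.47, 9.44 and 9.34 in Non-instigator cells, and 9.61, 9.12, 9.84 and 9.27 in Matrigel cells. The groups overlapped: Non-instigator 1, Matrigel 1 and Matrigel 3 fell within the Instigator range. Instigator minus Non-instigator was 0.24 (95% interval -0.07 to 0.55, limma adjusted p = 0.813), and the difference between Instigator and Matrigel was 0.31 (SE 0.15). Across the 14 arrays the values of the 2 probe sets correlated at r = 0.73, and at 0.85 over the 12 arrays without Instigator 4 and Matrigel 3 (a description of 1 transcript read by 2 probe sets on the same RNA). Instigator 4 held the highest Dnmt1 value on both. Without it, the difference at 1435122_x_at was 0.33 against Non-instigator and 0.43 against Matrigel, and against Matrigel it was 0.41 without both arrays that stand apart. An x_at probe set can also bind further transcripts, which was not tested.

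**Figure D1:**
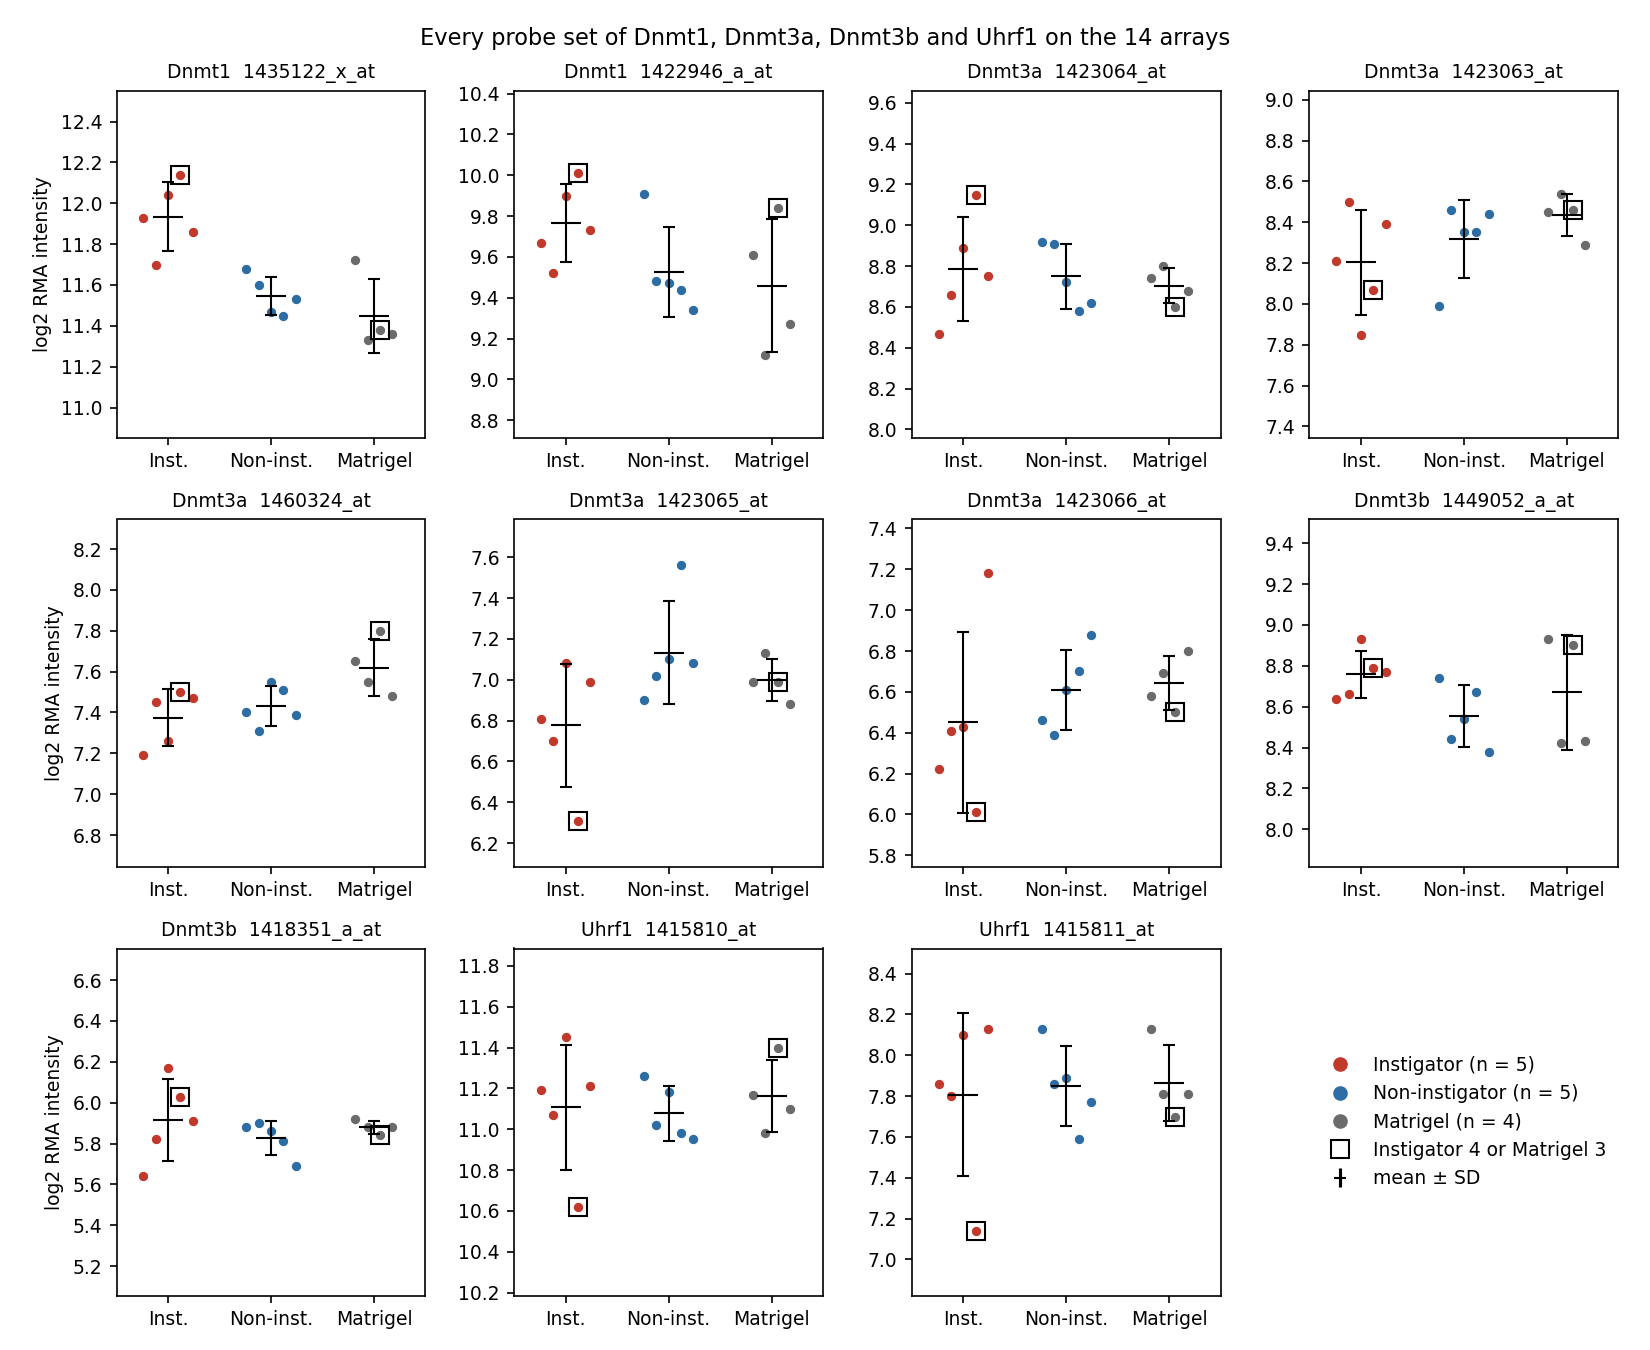
Log2 intensity (vertical axis, equal span in each panel) of each member probe set on each array, by group: Instigator (n = 5), Non-instigator (n = 5) and Matrigel (n = 4). Points are arrays, black bars are group means ± SD, and boxed squares mark Instigator 4 and Matrigel 3. In Dnmt1 1435122_x_at the Instigator arrays (11.70 to 12.14) all sit above the Non-instigator arrays (11.45 to 11.68), while the groups overlap in every other panel.

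Uhrf1, which reads hemimethylated DNA and recruits the maintenance enzyme, had group means that differed by less than the spread between arrays. On 1415810_at it measured 11.19, 11.07, 11.45, 10.62 and 11.21 in Instigator cells. The Non-instigator arrays gave 11.26, 11.02, 11.18, 10.98 and 10.95, and the Matrigel arrays 11.17, 10.98, 11.40 and 11.10. The groups overlapped throughout, and the lowest value of all arrays was that of Instigator 4, which was the highest in Dnmt1. Instigator minus Non-instigator was 0.03 (95% interval -0.25 to 0.32, limma adjusted p = 0.971). Non-instigator minus Matrigel was -0.09 (95% interval -0.39 to 0.22, limma adjusted p = 0.986), and the difference between Instigator and Matrigel was -0.05 (SE 0.14). Without Instigator 4 the Instigator values were 0.15 higher than the Non-instigator values and 0.07 higher than the Matrigel values. Probe set 1415811_at gave 7.86, 7.80, 8.10, 7.14 and 8.13 in Instigator cells, 8.13, 7.86, 7.89, 7.59 and 7.77 in Non-instigator cells and 8.13, 7.81, 7.70 and 7.81 in Matrigel cells, again with Instigator 4 lowest. Its differences were -0.04 for Instigator against Non-instigator (95% interval -0.39 to 0.31), -0.02 for Non-instigator against Matrigel and -0.06 for Instigator against Matrigel. The 2 Uhrf1 probe sets correlated at r = 0.76 over 14 arrays and 0.78 over 12.

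Dnmt3a, a de novo methyltransferase, gave no single answer, since its 5 probe sets disagreed. The brightest, 1423064_at, measured 8.47, 8.66, 8.89, 9.15 and 8.75 in Instigator cells, 8.92, 8.91, 8.72, 8.58 and 8.62 in Non-instigator cells and 8.74, 8.80, 8.60 and 8.68 in Matrigel cells. Instigator arrays lay both above and below the other groups, with Instigator 4 highest of all. Instigator minus Non-instigator was 0.03 (95% interval -0.22 to 0.28, limma adjusted p = 0.967), and -0.06 without Instigator 4. Non-instigator minus Matrigel was 0.05, and the difference between Instigator and Matrigel was 0.08 (SE 0.12).

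On the other 4 Dnmt3a probe sets the Instigator mean lay below both other means. On 1423065_at the Instigator arrays gave 6.81, 6.70, 7.08, 6.31 and 6.99, against 6.90, 7.02, 7.10, 7.56 and 7.08 in Non-instigator and 6.99, 7.13, 6.99 and 6.88 in Matrigel arrays. Instigator minus Non-instigator was -0.35 (SE 0.14, 95% interval -0.66 to -0.05), which did not pass over all probe sets (limma adjusted p = 0.813), and was -0.24 without Instigator 4, the lowest array. On 1460324_at the Instigator arrays gave 7.19, 7.45, 7.26, 7.50 and 7.47, against 7.40, 7.31, 7.55, 7.51 and 7.39 in Non-instigator and 7.65, 7.55, 7.80 and 7.48 in Matrigel arrays. Here Instigator and Non-instigator cells were close (-0.06), and their differences from Matrigel were -0.25 (SE 0.09) and -0.19 (95% interval -0.39 to 0.01). The 1423063_at means were 8.20 ± 0.26, 8.32 ± 0.19 and 8.44 ± 0.10 in Instigator, Non-instigator and Matrigel cells, and the 1423066_at means were 6.45 ± 0.44, 6.61 ± 0.20 and 6.64 ± 0.13 (SD, n = 5, 5 and 4). The 10 pairs of Dnmt3a probe sets correlated between -0.47 and 0.56 over 14 arrays, and between -0.30 and 0.54 over 12. Whether the probe sets read different transcript forms was not tested. The mean of the 5 probe sets put Instigator minus Matrigel at -0.16, against 0.08 for the brightest alone.

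Dnmt3b, the other de novo methyltransferase, overlapped between all groups. On 1449052_a_at the Instigator arrays gave 8.64, 8.66, 8.93, 8.79 and 8.77, the Non-instigator arrays 8.74, 8.44, 8.54, 8.67 and 8.38, and the Matrigel arrays 8.93, 8.42, 8.90 and 8.43. The Matrigel arrays formed a high pair and a low pair that enclosed most other arrays. Instigator minus Non-instigator was 0.20 (95% interval -0.04 to 0.45, limma adjusted p = 0.813), Non-instigator minus Matrigel was -0.12 (95% interval -0.38 to 0.15), and the difference between Instigator and Matrigel was 0.09 (SE 0.12). On 1418351_a_at the means were 5.91 ± 0.20 in Instigator, 5.83 ± 0.08 in Non-instigator (SD, n = 5 each) and 5.88 ± 0.04 in Matrigel cells (SD, n = 4). The 2 Dnmt3b probe sets correlated at r = 0.48.

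The members' counts are set here beside those of the whole array. At an adjusted p under 0.05, 0 of 11 member probe sets were called in Instigator against Non-instigator, in Non-instigator against Matrigel and in Instigator against Matrigel, beside 0.0% of all probe sets in each comparison (limma), and nothing is read from the count in the comparison that chose Dnmt1. At an unadjusted p under 0.05, 2 of 11 member probe sets passed in Instigator against Non-instigator, where 5.6% of all probe sets did: Dnmt1 1435122_x_at, among the 2.24% that were higher, and Dnmt3a 1423065_at, among the 3.36% that were lower. In Non-instigator against Matrigel 0 of 11 passed, beside 2.11%. Dnmt1 1435122_x_at was the 1 member probe set whose Instigator arrays all exceeded the Non-instigator arrays, which held for 0.751% of all probe sets and is lost where Instigator 5 is counted as Non-instigator. The 3 comparisons share arrays, so they are not independent. Dnmt1 was chosen on the same Instigator arrays, so its standing among all probe sets here is a description.

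**Figure D2:**
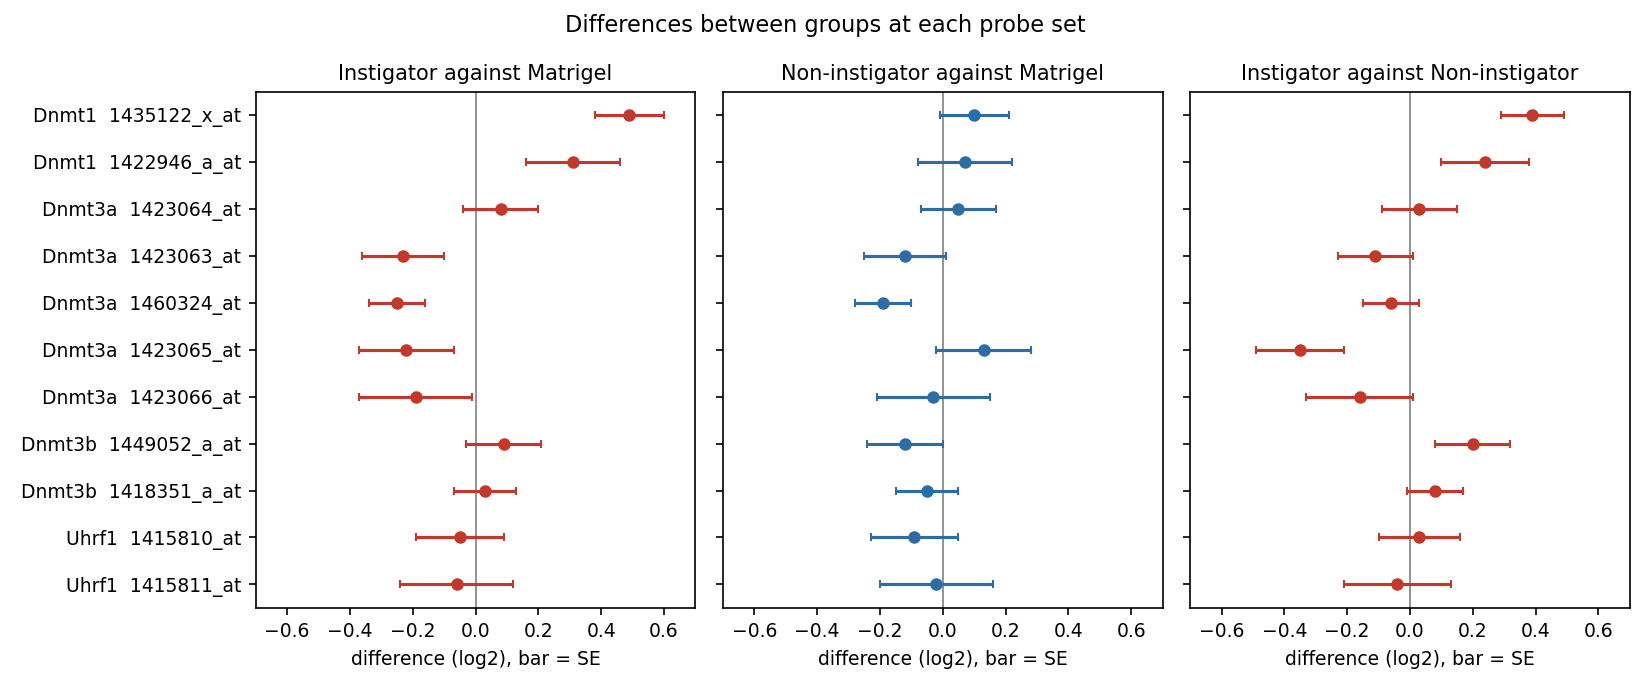
Difference in mean log2 intensity (horizontal axis) for each of the 11 member probe sets in the 3 comparisons: Instigator minus Matrigel, Non-instigator minus Matrigel, and Instigator minus Non-instigator. Points are limma estimates and bars are 1 standard error. The Dnmt1 probe sets lie to the right in both comparisons of Instigator cells (0.49 and 0.39 at 1435122_x_at), the Uhrf1 probe sets lie near 0, and the Dnmt3a probe sets fall on both sides.

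Whether the 4 genes rose and fell together from array to array was examined at the brightest probe set of each, over 6 pairs with two-sided permutation tests. Dnmt1 was chosen on these same arrays, so the pairs that hold it are a description. No correlation of Dnmt1 and Uhrf1 was detected over the 14 arrays (Pearson r = -0.07, permutation p = 0.817, adjusted 0.817; Spearman rho = 0.18, permutation p = 0.544, adjusted 0.652). Leaving out the 2 arrays farthest from the Dnmt1 median, Instigator 4 and Instigator 3, gave r = 0.24. The value turned on Instigator 4, where Dnmt1 was highest and Uhrf1 lowest: without it r was 0.48. Without Instigator 4 and Matrigel 3, the 2 arrays set apart by controls and median, r was 0.75 (n = 12, permutation p = 0.00421, adjusted 0.0126) and rho was 0.69 (permutation p = 0.0165, adjusted 0.0474).

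Dnmt3b had positive correlations with both maintenance genes. Dnmt1 and Dnmt3b correlated at r = 0.54 over 14 arrays (permutation p = 0.0508, adjusted 0.229; rho = 0.56, permutation p = 0.0407, adjusted 0.214), at 0.38 without the 2 farthest arrays and at 0.73 over the 12 arrays (permutation p = 0.00741, adjusted 0.0148). Dnmt3b and Uhrf1 correlated at r = 0.44 (permutation p = 0.114, adjusted 0.229; rho = 0.50, permutation p = 0.0714, adjusted 0.214), at 0.39 without the 2 farthest arrays and at 0.75 over the 12 arrays (permutation p = 0.00417, adjusted 0.0126). Over all 14 arrays no pair passed after adjustment. Dnmt3a gave r = 0.45 with Dnmt1, 0.17 with Dnmt3b and -0.35 with Uhrf1, with adjusted permutation p of 0.229, 0.681 and 0.326, and its rho values were 0.32, 0.20 and -0.01 (adjusted permutation p 0.517, 0.652 and 0.977). Without the 2 farthest arrays its r values were -0.08, 0.07 and 0.27. These Dnmt3a values belong to 1423064_at alone, which correlated with the other Dnmt3a probe sets at -0.46, -0.07, -0.47 and -0.37 over 14 arrays.

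The genes whose values followed each member most closely over the 14 arrays were taken from all 12393 genes, 5 for each member, and the r values here are a description over arrays that share labelling and normalization. For Dnmt1 they were Cdt1 (r = 0.92), which licenses replication origins, Pole (0.92), which encodes the catalytic chain of polymerase epsilon, Nomo1 (0.91), a membrane protein of the endoplasmic reticulum, Gars (0.89), glycyl-tRNA synthetase, and Atad3a (0.88), a mitochondrial ATPase. Over 12 arrays these stood at 0.88, 0.87, 0.93, 0.82 and 0.83, and ranked 14, 20, 1, 60 and 52 among all genes. For Uhrf1 they were Sypl, Slc31a1, Parl, Afg3l1 and Snrpc, each at 0.93 over 14 arrays and at 0.87, 0.84, 0.88, 0.86 and 0.85 over 12. Their ranks over the 12 were 63, 115, 33, 74 and 81, so which genes come first depends on the arrays kept. Slc31a1 is a copper transporter, Parl and Afg3l1 are mitochondrial proteases, and Snrpc is part of the U1 splicing particle.

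For Dnmt3b the closest genes were Kif17 (0.89), a kinesin motor, Mpo (0.88), the peroxidase of neutrophil granules, Naf1 (0.88), an assembly factor of small nucleolar RNPs, Myb (0.87), a transcription factor of blood progenitors, and Cul4a (0.87), a ubiquitin ligase scaffold. Over 12 arrays they stood at 0.92, 0.87, 0.88, 0.85 and 0.84, with ranks 1, 10, 6, 30 and 33. For Dnmt3a they were Tmco4 (0.91), Fgl2 (0.84), a fibrinogen-like protein, Kifap3 (0.83), a kinesin-associated protein, Cdca7l (0.82), a relative of the chromatin factor Cdca7, and Sash1 (0.82), a signalling scaffold. Of these, Tmco4 stood at 0.86 over 12 arrays (rank 2), while the other 4 stood between 0.67 and 0.70 (ranks 82 to 123). The closest genes of Dnmt3a were matched to 1423064_at alone, which the other Dnmt3a probe sets did not follow (r from -0.47 to -0.07 over 14 arrays).

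Genes that work with the members were followed as lists, each described by its count and median beside all genes, and 0 genes of any list were called in any comparison (limma, adjusted p under 0.05). Over all 12393 genes the median difference was -0.02 for Instigator against Matrigel, -0.04 for Non-instigator against Matrigel and 0.03 for Instigator against Non-instigator. The shares of all genes above 0 were 45.9%, 38.3% and 58.2% in the same order, and each list count is to be read beside them. The maintenance partners (13 of 15 measured) include the sliding clamp Pcna and the deubiquitinase Usp7. Of these partners 8 (61.5%, against 58.2% of all genes) lay above 0 in Instigator against Non-instigator, with a median of 0.08. Those with the largest differences between Instigator and Matrigel were the histone deacetylases Hdac2 (-0.44, SE 0.20) and Hdac1 (0.41, SE 0.22), the corepressor Trim28 (0.41, SE 0.15) and the DNA ligase Lig1 (0.26, SE 0.12). Hdac1 ran from 9.35 to 10.70 in Instigator arrays around a mean of 9.64, and Hdac2 from 8.54 to 9.50 around 9.25. A single array can therefore weigh heavily in each of these means. Pcna stood at 12.01 ± 0.16 in Instigator and 11.93 ± 0.23 in Non-instigator (SD, n = 5 each), and at 11.79 ± 0.33 in Matrigel cells (SD, n = 4).

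The S phase list holds genes of DNA replication, and most of its measured members had their higher mean in Instigator cells. Of 29 measured genes 24 lay above 0 in Instigator against Non-instigator (82.8%, against 58.2% of all genes), with a median of 0.14. In Non-instigator against Matrigel 11 of 29 lay above 0 with a median of -0.05 (0.01 after centring and 0.03 without both arrays that stand apart), and in Instigator against Matrigel 21 of 29 did, with a median of 0.13. Pole averaged 8.48 ± 0.26 in Instigator, 8.11 ± 0.24 in Non-instigator and 7.77 ± 0.20 in Matrigel cells. The helicase subunit Mcm2 averaged 9.85 ± 0.48, 9.24 ± 0.36 and 9.29 ± 0.18, and the licensing factors Cdt1 and Cdc6 differed between Instigator and Matrigel by 0.68 (SE 0.18) and 0.52 (SE 0.22). Mcm2 ran from 9.49 to 10.68 in Instigator arrays and from 8.97 to 9.86 in Non-instigator arrays. None of these genes passed over all probe sets (limma adjusted p = 0.813 for each of the 4 in Instigator against Non-instigator). The G2 and mitosis list (19 genes) was split, with 10 above 0 in Instigator against Non-instigator (52.6%, against 58.2% of all genes) and a median of 0.03. In it, Instigator minus Matrigel was -0.77 (SE 0.31) for the centromere motor Cenpe and 0.45 (SE 0.18) for the kinase Aurkb. Cenpe ran from 4.93 to 6.97 in Instigator arrays around a mean of 6.28, and from 6.78 to 7.30 in Matrigel arrays.

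The array mean of the S phase list ran from 9.59 to 9.96 in Instigator, 9.35 to 9.89 in Non-instigator and 9.39 to 9.69 in Matrigel cells. Relations between the 4 members and the array means of 15 lists made 60 in all, adjusted together. Dnmt1 was chosen on its difference between Instigator and Matrigel arrays, and the permutations did not keep arrays within their groups. A list that differs between the same groups therefore tends to correlate with Dnmt1. Each Dnmt1 relation and its p-value are thus a description and not a test. With Dnmt1 the S phase mean correlated at r = 0.70 over 14 arrays (permutation p = 0.00485, adjusted 0.0655; rho = 0.68, permutation p = 0.00848, adjusted 0.127), at 0.65 without the 2 arrays farthest from its median and at 0.69 over the 12 arrays (permutation p = 0.0127, adjusted 0.0662; rho = 0.75, adjusted permutation p = 0.0439). With Uhrf1 it correlated at 0.12 over 14 arrays (permutation p = 0.675, adjusted 0.794; rho = 0.45, permutation p = 0.113, adjusted 0.331), at 0.77 without the 2 farthest and at 0.78 over the 12 (permutation p = 0.00231, adjusted 0.0198; rho = 0.80, adjusted permutation p = 0.0258). Instigator 4, with the highest S phase mean, again had low Uhrf1 and high Dnmt1.

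**Figure D3:**
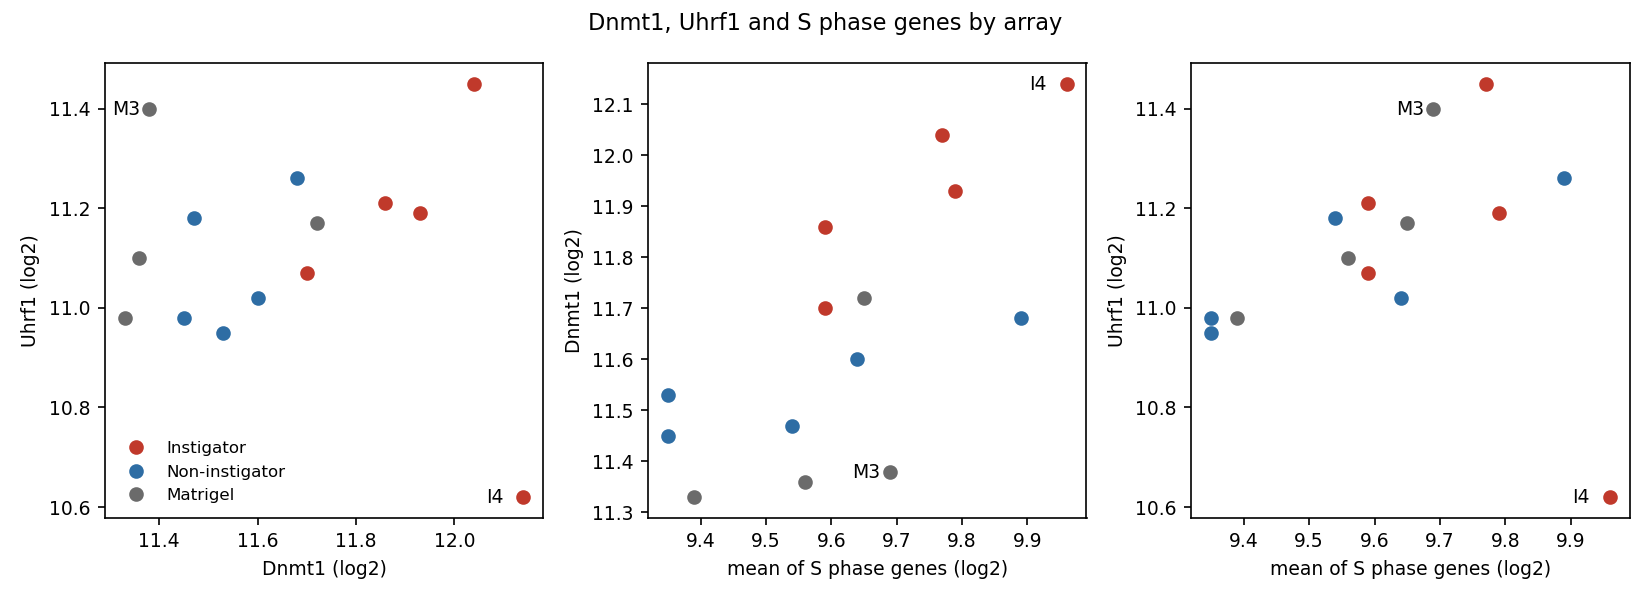
Left, log2 intensity of Uhrf1 (vertical axis) against Dnmt1 (horizontal axis) at the brightest probe set of each. Middle and right, Dnmt1 and Uhrf1 (vertical axes) against the mean log2 intensity of 29 S phase genes (horizontal axis). Each point is 1 of 14 arrays, coloured by group, and I4 and M3 label Instigator 4 and Matrigel 3. Instigator 4 sits at 12.14 for Dnmt1, 10.62 for Uhrf1 and 9.96 for the S phase mean, away from the other arrays in both Uhrf1 panels.

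The genes that make and recycle the methyl donor S-adenosylmethionine were also followed, 11 of 16 measured. In Instigator against Non-instigator 8 of 11 lay above 0 (median 0.09), in Non-instigator against Matrigel 6 (median 0.03), and in Instigator against Matrigel 10 (median 0.10, or 0.17 after centring each array on the common median). These shares were 72.7%, 54.5% and 90.9%, beside 58.2%, 38.3% and 45.9% of all genes. Mthfd1, a folate cycle enzyme, averaged 9.58 ± 0.49 in Instigator, 9.11 ± 0.19 in Non-instigator and 9.12 ± 0.20 in Matrigel cells. Its Instigator arrays ran from 9.16 to 10.43 and its Non-instigator arrays from 8.93 to 9.41. Ahcy, which clears the by-product S-adenosylhomocysteine, averaged 10.70 ± 0.23, 10.61 ± 0.22 and 10.47 ± 0.17. The mean of this list correlated with Dnmt1 at r = 0.79 over 14 arrays (permutation p = 0.00078, adjusted 0.0234; rho = 0.71, permutation p = 0.00547, adjusted 0.127), at 0.58 without the 2 farthest arrays and at 0.70 over the 12 (adjusted permutation p = 0.0625). The Dnmt1 relation thus passed by Pearson r over all arrays and not by rank or over the 12. It is a description and not a test, since Dnmt1 was chosen on its difference between Instigator and Matrigel arrays, which are among those correlated. With Uhrf1 the list mean gave r = 0.02 over 14 arrays (adjusted permutation p = 0.981). Over the 12 it gave r = 0.80 (adjusted permutation p = 0.0174) and rho = 0.70 (adjusted permutation p = 0.074).

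Of the genes of active demethylation and base repair, 7 of 11 were measured: Tet1, Mbd4, Apex1, Gadd45a, Gadd45b, Idh1 and Idh2. Tet2, Tet3, Tdg and Smug1 were not. Tet1 averaged 5.35, 5.28 and 5.39 in Instigator, Non-instigator and Matrigel cells, and Mbd4 5.49, 5.71 and 5.65, below the median of every array. In Instigator against Non-instigator 4 of 7 lay above 0 (57.1%, against 58.2% of all genes), with a median of 0.01. In Non-instigator against Matrigel 2 of 7 did, and in Instigator against Matrigel 1 of 7 (median -0.10, or 0.04 without both arrays that stand apart). The repair nuclease Apex1 averaged 10.59 ± 0.51 in Instigator, 9.97 ± 0.39 in Non-instigator and 10.24 ± 0.26 in Matrigel cells, and the stress protein Gadd45b averaged 8.47 ± 0.70, 8.79 ± 0.08 and 9.15 ± 0.40. Instigator arrays ran from 10.15 to 11.41 for Apex1 and from 7.23 to 8.85 for Gadd45b, so a single array can weigh heavily in these means. The mean of the list correlated with Uhrf1 at r = 0.93 over the 14 arrays (permutation p = 1e-05, the smallest that the resamples can give, adjusted 0.0006; rho = 0.89, permutation p = 6e-05, adjusted 0.0036). Without the 2 arrays farthest from its median, r was 0.85, and those 2 were Instigator 4 and Matrigel 3, the arrays that stand apart. The same list gave r = -0.29 with Dnmt1 over 14 arrays and 0.54 over 12.

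Readers of methylated DNA (4 of 7 measured) had 1 of 4 above 0 in Instigator against Non-instigator, with a median of -0.01 (0.01 after quantile normalization or centring, 0.02 without both arrays that stand apart), and Mbd2 averaged 10.78 ± 0.11 in Instigator, 10.78 ± 0.08 in Non-instigator and 10.61 ± 0.09 in Matrigel cells. The list named repressive histone methylation also holds genes that do not write repressive marks, such as Nsd1. Of its 13 measured genes 7 (53.8%, against 58.2% of all genes) lay above 0 in Instigator against Non-instigator. In Instigator against Matrigel 4 did (median -0.05, or 0.03 after centring). For the Polycomb subunit Eed, Instigator minus Non-instigator was -0.25 and Instigator minus Matrigel was -0.29 (SE 0.11). The histone methyltransferase Nsd1 averaged 7.09 ± 0.47, 7.10 ± 0.21 and 7.50 ± 0.13. Germline genes normally silenced by promoter methylation (15 measured) had medians of 0.05 in Instigator against Non-instigator, -0.05 in Non-instigator against Matrigel and 0.00 in Instigator against Matrigel. The medians of 22 imprinted genes were 0.01, -0.03 and 0.00 in the same comparisons, and the second was 0.02 after centring, 0.03 after quantile normalization and 0.05 without both arrays that stand apart. Of these, Impact, a regulator of translation, differed most between Instigator and Matrigel, at -0.61 (SE 0.13).

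**Figure D4:**
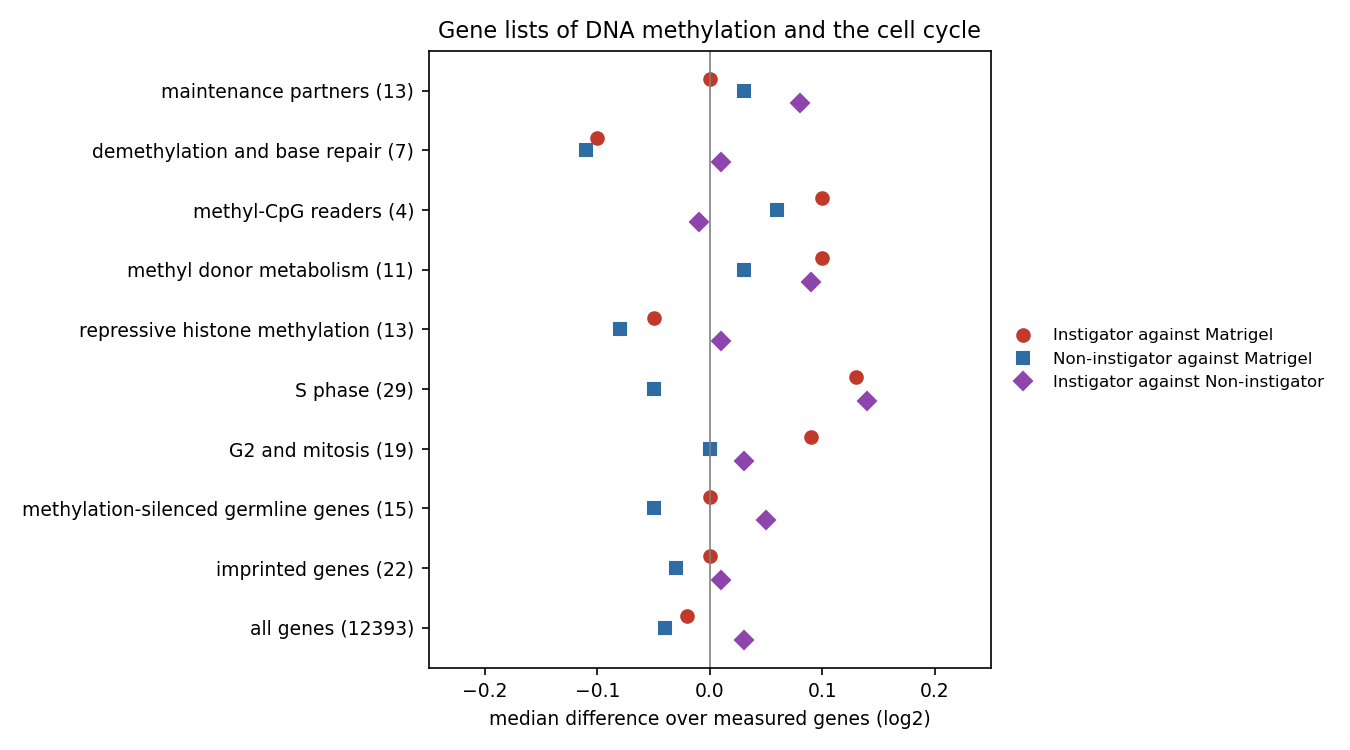
Median log2 difference (horizontal axis) over the measured genes of each of 9 pathway lists and over all genes, with the number of genes in brackets. Circles are Instigator minus Matrigel, squares Non-instigator minus Matrigel and diamonds Instigator minus Non-instigator. The S phase list lies at 0.13, -0.05 and 0.14 in that order, beside -0.02, -0.04 and 0.03 for all genes.

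Marker lists of other bone marrow cells also had unequal levels between the groups, with 0 markers called. Of all genes 58.2% lay above 0 in Instigator against Non-instigator and 45.9% in Instigator against Matrigel. Of 9 dendritic cell markers measured, 7 lay below 0 in Instigator against Non-instigator (median -0.29) and 8 in Instigator against Matrigel (median -0.66), and their array mean ran from 8.45 to 9.37 in Instigator, 8.54 to 9.54 in Non-instigator and 9.20 to 9.66 in Matrigel cells. Of 11 B lineage markers 10 lay below 0 in Instigator against Non-instigator (median -0.32), with array means of 7.87 to 9.15, 8.34 to 9.63 and 8.85 to 9.38 in Instigator, Non-instigator and Matrigel cells. All 8 T lineage markers lay below 0 in Instigator against Non-instigator (median -0.32), with array means of 7.79 to 8.68, 7.96 to 9.35 and 8.44 to 8.74. Of 11 granulocyte markers 10 lay above 0 in Instigator against Non-instigator (median 0.08), with array means of 12.38 to 12.59, 12.10 to 12.57 and 12.22 to 12.42. Erythroid and progenitor markers had medians of -0.04 and 0.02 in Instigator against Non-instigator. No marker is at 0 on this intensity scale. Across the 14 arrays Dnmt1 correlated with the dendritic mean at r = -0.71 (permutation p = 0.00537, adjusted 0.0655; rho = -0.59, permutation p = 0.0291, adjusted 0.172), at -0.72 without the 2 farthest arrays and at -0.65 over the 12 (adjusted permutation p = 0.0915), a size like that of the S phase relation. With the granulocyte mean it correlated at 0.58 (permutation p = 0.0288, adjusted 0.23; rho = 0.67, permutation p = 0.0106, adjusted 0.127), at 0.55 without the 2 farthest arrays and at 0.66 over the 12 (adjusted permutation p = 0.0767; rho = 0.74, adjusted permutation p = 0.0443). The r values with the B lineage, T lineage, erythroid and progenitor means over 14 arrays were -0.53, -0.50, -0.34 and 0.02, with adjusted permutation p of 0.23, 0.263, 0.393 and 0.981. These Dnmt1 relations are a description, since Dnmt1 was chosen on its difference between groups of these same arrays. How much of the Dnmt1 difference between groups goes with these markers was not tested, and in sorted bulk cells a changed share of a cell type and a changed amount of RNA per cell cannot be told apart.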

How the data were processed

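RNA of sorted bone marrow cells was measured on Affymetrix mouse arrays, 1 sample per array, after Qiagen extraction and NuGen Ovation labelling, per the labels' protocols. The deposited intensity values are linear and cover 22690 probe sets, and were made by the authors with RMA in affy under R 2.11.0, per the submitters' processing notes. The sources used here name no further options. Values were log2-transformed, 64 control probe sets were left out, and limma 3.58.1 (R 4.3.3) was fitted to all 14 arrays with group as the only term, with Benjamini-Hochberg adjustment over 22626 probe sets. The limma script was tested on simulated data.

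Symbols came from the platform annotation: 20380 probe sets have 1 symbol, 691 several and 1555 are unnamed here. A gene is represented by its brightest probe set. Named genes were the members, the 5 closest genes of each, and up to 4 genes per list with the largest difference between Instigator and Matrigel. Pcna and Usp7 were added for their role, and the genes of the demethylation list to show which were measured. Members and lists were chosen with earlier results of these data known. Correlations used 100000 permutations. Groups came from sample titles, and no 2 of the 14 arrays were identical. The number of arrays limits the precision. The alternatives were the compared groups alone, the brighter probe sets, quantile normalization, centring, an intensity trend, array weights, a replicate block, leaving out arrays and moving Instigator 5.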

Additional observations from a re-analysis of the deposited data

Results flagged for a closer look

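In 3 of the 33 sets of values made by a member probe set within a group, 1 array lay far from the others by Dixon's criterion, which chance alone meets in about 1 of 20 such sets. For Dnmt1 1435122_x_at, Matrigel 1 stood at 11.72, above the other Matrigel arrays at 11.33 to 11.38. For Dnmt1 1422946_a_at, Non-instigator 1 stood at 9.91, above the other Non-instigator arrays at 9.34 to 9.48. For Dnmt3a 1423063_at, Non-instigator 1 stood at 7.99, below the other Non-instigator arrays at 8.35 to 8.46.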

How the results depend on the processing

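No member probe set was called under any alternative, and of 750 member differences recomputed, 703 kept their direction. Part of these could not change, so the count overstates how stable they are. The compared groups alone, the brighter probe sets, an intensity trend and leaving out an array of the third group keep a difference as it was. Over all probe sets, Instigator against Matrigel gave 1 call without Instigator 4 and 1 without Instigator 4 and Matrigel 3 (Scd2, at -0.76 and -0.67), and leaving out 1 array gave 0 to 1 calls there and 0 in the other 2 comparisons. The remaining alternatives gave 0, with 477 to 2324 probe sets at an unadjusted p under 0.05 in the fit reported. Replicate numbers did not pair the arrays: 5 of 13 pairs of same-numbered arrays correlated above 0.1 (range -0.20 to 0.27), and 2 of 14 arrays were closest to their own number. With the number as a replicate block, 0 probe sets were called, and Dnmt1 1435122_x_at differed by 0.39 between Instigator and Non-instigator cells, by 0.50 between Instigator and Matrigel cells and by 0.11 between Non-instigator and Matrigel cells.

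Another 47 changed sign, and the cause was not tested. In Instigator against Matrigel, array weights gave -0.08 for Dnmt3a 1423064_at, -0.05 for Dnmt3b 1418351_a_at, 0.11 for Uhrf1 1415810_at and 0.04 for Uhrf1 1415811_at. Without Instigator 4 and Matrigel 3 the same 4 stood at -0.05, -0.01, 0.15 and 0.06. Centring gave 0.02 for each Uhrf1 probe set, and quantile normalization gave 0.03 for 1415811_at. Leaving out 1 array gave -0.01 to 0.16 for Dnmt3a 1423064_at, -0.03 to 0.10 for Dnmt3b 1418351_a_at, -0.14 to 0.07 for Uhrf1 1415810_at and -0.14 to 0.11 for Uhrf1 1415811_at. With all 5 Dnmt3a probe sets averaged, Dnmt3a stood at -0.13 in Instigator against Non-instigator, -0.16 in Instigator against Matrigel and -0.03 in Non-instigator against Matrigel, and averaged Uhrf1 stood at 0.00 in Instigator against Non-instigator. Of 135 list medians recomputed, 11 changed sign. In Non-instigator against Matrigel, array weights gave -0.03 for Dnmt3a 1423064_at, 0.00 for Dnmt3b 1449052_a_at and 0.02 for Uhrf1 1415810_at. Quantile normalization and centring gave 0.03 and 0.02 for Dnmt3a 1423066_at, 0.01 and 0.00 for Dnmt3b 1418351_a_at, and 0.03 and 0.04 for Uhrf1 1415811_at. Moving Instigator 5 gave 0.06 for Dnmt3a 1423066_at and 0.03 for Uhrf1 1415811_at. In Instigator against Non-instigator, moving it gave -0.02 for Uhrf1 1415810_at, array weights gave -0.04 for Dnmt3a 1423064_at and 0.09 for Uhrf1 1415811_at, and quantile normalization gave 0.00 for the last. Without Instigator 4 and Matrigel 3 these 2 probe sets stood at -0.06 and 0.13. Leaving out 1 array gave ranges in Instigator against Non-instigator of -0.06 to 0.11 for Dnmt3a 1423064_at, -0.05 to 0.15 for Uhrf1 1415810_at and -0.12 to 0.13 for Uhrf1 1415811_at. In Non-instigator against Matrigel the ranges were -0.04 to 0.20 for Dnmt1 1422946_a_at, -0.10 to 0.02 for Dnmt3a 1423066_at and -0.09 to 0.07 for Uhrf1 1415811_at. The correlation of Dnmt1 and Uhrf1 was 0.03 after centring, 0.01 with all probe sets of a gene averaged, 0.75 without Instigator 4 and Matrigel 3, and -0.34 (without Instigator 3) to 0.48 (without Instigator 4) when 1 array was left out.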

Other observations

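Uhrf1, whose groups overlapped, correlated with 4 of the 6 cell type marker lists across arrays once the 2 arrays that stand apart were left out. Over the remaining 12 arrays, 7 of the 15 list means correlated with Uhrf1 by Pearson r at an adjusted permutation p under 0.05, and 0 with Dnmt1, Dnmt3a or Dnmt3b. By Spearman rho, 8 did with Uhrf1, 2 with Dnmt1 (S phase and granulocyte) and 0 with Dnmt3a or Dnmt3b. Dnmt1 was chosen on its group difference in these arrays, so its relations are a description. The values that follow are those of Uhrf1. The B lineage mean gave r = -0.87 (adjusted permutation p = 0.0048; rho = -0.83, adjusted permutation p = 0.021), the T lineage mean -0.84 (adjusted permutation p = 0.0063; rho = -0.81, adjusted 0.0257), the dendritic mean -0.83 (adjusted permutation p = 0.0063; rho = -0.78, adjusted 0.035) and the granulocyte mean 0.83 (adjusted permutation p = 0.0174; rho = 0.88, adjusted 0.021). The erythroid and progenitor means gave -0.58 (adjusted permutation p = 0.162) and 0.32 (adjusted permutation p = 0.472). Over all 14 arrays the values of the B lineage, T lineage, dendritic and granulocyte means were -0.44, -0.48, -0.22 and 0.38, with adjusted permutation p of 0.309, 0.282, 0.622 and 0.371. Without the 2 arrays farthest from each list's own median they were 0.05, -0.26, 0.23 and 0.13. Those left out were Instigator 3 and a Non-instigator array, so Instigator 4 and Matrigel 3 were still included. The relation thus rests on which arrays are kept, and these last values do not check it over the 12.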
